A study of Mus musculus with 10 samples.

Results

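Class IIa histone deacetylases (HDACs) and MEF2 factors act together on transcription, and 7 of their genes were followed here in dorsal root ganglia (DRGs) with and without Lkb1. They were Hdac4, Hdac5, Hdac7 and Hdac9, which are all the class IIa HDAC genes of the mouse, and Mef2a, Mef2c and Mef2d, and they are 7 of the 19938 genes with a value of their own. The genes were taken by name, each as its brightest probe set assigned to that gene alone, and the group was chosen by a measured value, the fall of Hdac9 in Lkb1 KO in these same samples. Values of Lkb1 KO against WT for these 7 genes are therefore given as a description, without p-values. The fourth MEF2 gene of the mouse, Mef2b, shares its probe set with other genes and has no value here.

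Lkb1 KO embryos carried floxed Lkb1 (gene symbol Stk11) and a Wnt1–Cre transgene, which is active in the neural crest, from which DRG neurons and glia arise, and in part of the central nervous system (midbrain and dorsal neural tube). Cells of the ganglion from other lineages, such as blood vessels, are thus not targeted by this Cre. WT samples came from embryos of the same mixed genetic background, with littermates as the study's controls, and whether they carried a floxed allele or Cre is not stated for the arrays. DRGs were taken at E13.5, and each of the 5 Lkb1 KO and 5 WT samples pooled 2 embryos and was hybridised to 1 one-colour Affymetrix array, so that n counts pools. Values are log2 expression levels after RMA, on which 1 unit is a doubling. They can be compared between samples for 1 gene but not between genes, since each probe set has its own brightness.

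Class IIa HDACs have little deacetylase activity of their own. They bind MEF2 factors, which are DNA-binding proteins of the MADS-box family, and bring corepressor complexes to MEF2 target genes. Kinases of the SIK, AMPK, CaMK and protein kinase D families phosphorylate them, after which chaperones of the 14-3-3 family hold them in the cytoplasm and MEF2 can activate transcription. LKB1 is the upstream activator of AMPK and of the SIK and MARK kinases. In sensory neurons HDAC5 is known for leaving the nucleus after axon injury, and Hdac9 also gives rise to a short form, MITR, that lacks the deacetylase domain. The arrays give 1 value for Hdac9 and do not separate these forms.

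The promoters of Hdac9 and Hdac5, the genes that differed most, and of Mef2a are shown because MEF2 is known, from muscle, to activate Hdac9. Of the 7 genes only Hdac5 and Mef2a had a MEF2 match in their windows. RefSeq (GRCm38.p6) gives 13 windows for the 7 genes, each with 250 bases before an annotated transcription start and 50 from it on. In the sequences that follow, which run 5′ to 3′ along the gene, capitals mark a match to the MEF2 consensus and, in Hdac5, 2 copies of TGACG, the core of the cAMP response element.
Hdac5, chr11:102230123-102230422, minus strand: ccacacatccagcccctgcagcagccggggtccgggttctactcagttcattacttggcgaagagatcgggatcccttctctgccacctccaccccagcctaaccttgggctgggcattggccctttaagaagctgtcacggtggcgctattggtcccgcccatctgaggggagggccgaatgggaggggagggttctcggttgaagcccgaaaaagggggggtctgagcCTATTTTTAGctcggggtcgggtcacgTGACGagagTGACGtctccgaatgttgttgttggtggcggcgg
Mef2a, chr7:67372809-67373108, minus strand: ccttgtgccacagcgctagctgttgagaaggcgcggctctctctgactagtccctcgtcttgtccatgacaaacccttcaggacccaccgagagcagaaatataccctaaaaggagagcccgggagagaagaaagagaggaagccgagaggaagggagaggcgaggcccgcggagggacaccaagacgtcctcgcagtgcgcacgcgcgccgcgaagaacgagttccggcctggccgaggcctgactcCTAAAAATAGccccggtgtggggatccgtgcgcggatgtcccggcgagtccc
Hdac9, outermost start, chr12:34917046-34917345, minus strand: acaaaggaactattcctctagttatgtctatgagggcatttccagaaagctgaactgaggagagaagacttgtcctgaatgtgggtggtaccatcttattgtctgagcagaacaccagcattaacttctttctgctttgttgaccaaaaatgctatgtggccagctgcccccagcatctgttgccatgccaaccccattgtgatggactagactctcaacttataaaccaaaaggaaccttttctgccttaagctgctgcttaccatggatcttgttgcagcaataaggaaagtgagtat
Hdac9, internal start, chr12:34528840-34529139, minus strand: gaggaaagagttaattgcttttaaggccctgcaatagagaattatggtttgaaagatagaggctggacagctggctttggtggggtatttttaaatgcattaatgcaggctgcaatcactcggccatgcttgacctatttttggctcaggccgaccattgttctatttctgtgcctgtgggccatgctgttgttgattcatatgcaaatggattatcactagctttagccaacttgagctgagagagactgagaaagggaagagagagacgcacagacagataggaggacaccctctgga
The Hdac5 match, CTATTTTTAG, begins 20 bases before the start, and the Mef2a match, CTAAAAATAG, begins 2 bases before it. The MEF2 consensus was found in 3.19% of all 32851 promoter windows, on either strand, and in 2 of the 13 windows here. TGACG was searched on both strands, is present in 20.8% of all windows, and lay in those of Hdac4, with 3 copies, and Hdac5. The E-box CACGTG, present in 7.15% of all windows, lay only in that of Hdac5, where it overlaps the first TGACG. The full element TGACGTCA, present in 1.79%, was in none of the 13. Neither Hdac9 window held a match to any of these, which says only that these letters are not in these windows.

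**Figure D1:**
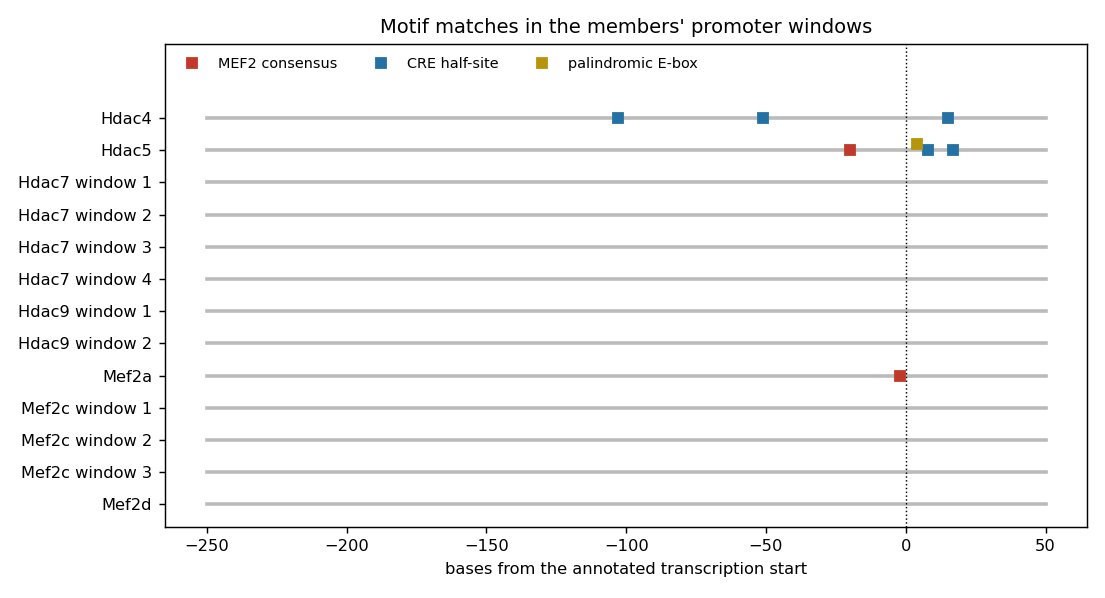
Position of motif matches (squares) along each promoter window (grey line) of the 7 genes, in bases from the annotated transcription start (x axis). Red is the MEF2 consensus, blue TGACG and yellow CACGTG; the MEF2 matches of Hdac5 and Mef2a lie 20 and 2 bases before the start.

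The 4 class IIa HDAC genes did not move together. Hdac9 and Hdac5 were lower in Lkb1 KO DRGs, at 55.7% and 69.4% of the WT level, while Hdac4 and Hdac7 had overlapping values in the 2 groups. In a fit over all genes with limma, 2 of the 7 genes, Hdac9 and Hdac5, passed an adjusted p under 0.05, both lower. Over all genes tested 3.87% passed in either direction, 1.38% lower and 2.49% higher, and because this contrast chose the group nothing is read from its count. The median log2 difference was -0.25 over the 4 HDAC genes and -0.11 over the 3 MEF2 genes, against -0.0017 over all genes. These medians hold the fall that chose the group, so nothing is read from them either. That of the HDAC genes lay between Hdac9 and Hdac5, at -0.84 and -0.53, and Hdac7 and Hdac4, at 0.03 and 0.15. No HDAC gene was near it.

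Hdac9 was at 7.35, 7.28, 7.07, 7.15 and 6.99 in Lkb1 KO replicates 1 to 5, against 8.28, 8.07, 8.0, 7.91 and 7.81 in WT replicates 1 to 5. The groups did not overlap: the highest Lkb1 KO sample was 0.46 below the lowest WT sample. Of all genes, 2.24% were separated in this direction and 3.09% in the other, 5.34% in all, and 3 of the 7 were, Mef2c being the other one. The means were 7.17 ± 0.15 in Lkb1 KO and 8.01 ± 0.18 in WT (SD, n = 5 each), a log2 fold change of -0.84 (standard error 0.09, 95% confidence interval -1.03 to -0.66). Samples with the same replicate number were high or low together, so that the 5 differences within a number ran only from -0.93 to -0.76, with an SD of 0.08. The standard error and interval given for Hdac9 come from a fit that ignores this pairing. Counted from the lowest log2 fold change, Hdac9 had rank 5 among the 275 genes called lower and rank 9 among all genes. It was chosen for this fall, so the ranks are a description only.

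Hdac5 was at 6.77, 6.77, 6.62, 6.6 and 6.87 in Lkb1 KO replicates 1 to 5, against 7.16, 7.29, 7.30, 7.29 and 7.23 in WT replicates 1 to 5. Here too every Lkb1 KO value was below the WT range, with a gap of 0.29. The WT samples lay close together, at 7.25 ± 0.06, and the Lkb1 KO samples were more spread, at 6.73 ± 0.11 (SD, n = 5 each). The log2 fold change was -0.53 (standard error 0.05), and the differences within replicate numbers ran from -0.69 to -0.36. Lkb1 KO replicates 3 and 4 were the lowest for Hdac5, whereas replicates 5 and 3 were the lowest for Hdac9.

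Hdac4, the paralog best known from chondrocytes and from denervated muscle, pointed the other way without passing the test. It was at 9.43, 9.46, 9.49, 9.30 and 9.53 in Lkb1 KO, against 9.41, 9.30, 9.38, 9.25 and 9.13 in WT. The groups overlapped, and the log2 difference was 0.15 (standard error 0.06). Lkb1 KO was the higher one in all 5 replicate numbers, but by 0.01 in number 1 and by 0.40 in number 5. A second Hdac4 probe set gave a log2 difference of 0.19 (standard error 0.07), also with overlapping groups.

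Hdac7, known for its roles in endothelium and thymocytes, was at 8.02 to 8.15 in Lkb1 KO (median 8.13), against 7.99 to 8.15 in WT (median 8.08). The 2 ranges nearly coincided. Its log2 difference was 0.03 (standard error 0.05, 95% confidence interval -0.07 to 0.13).

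**Figure D2:**
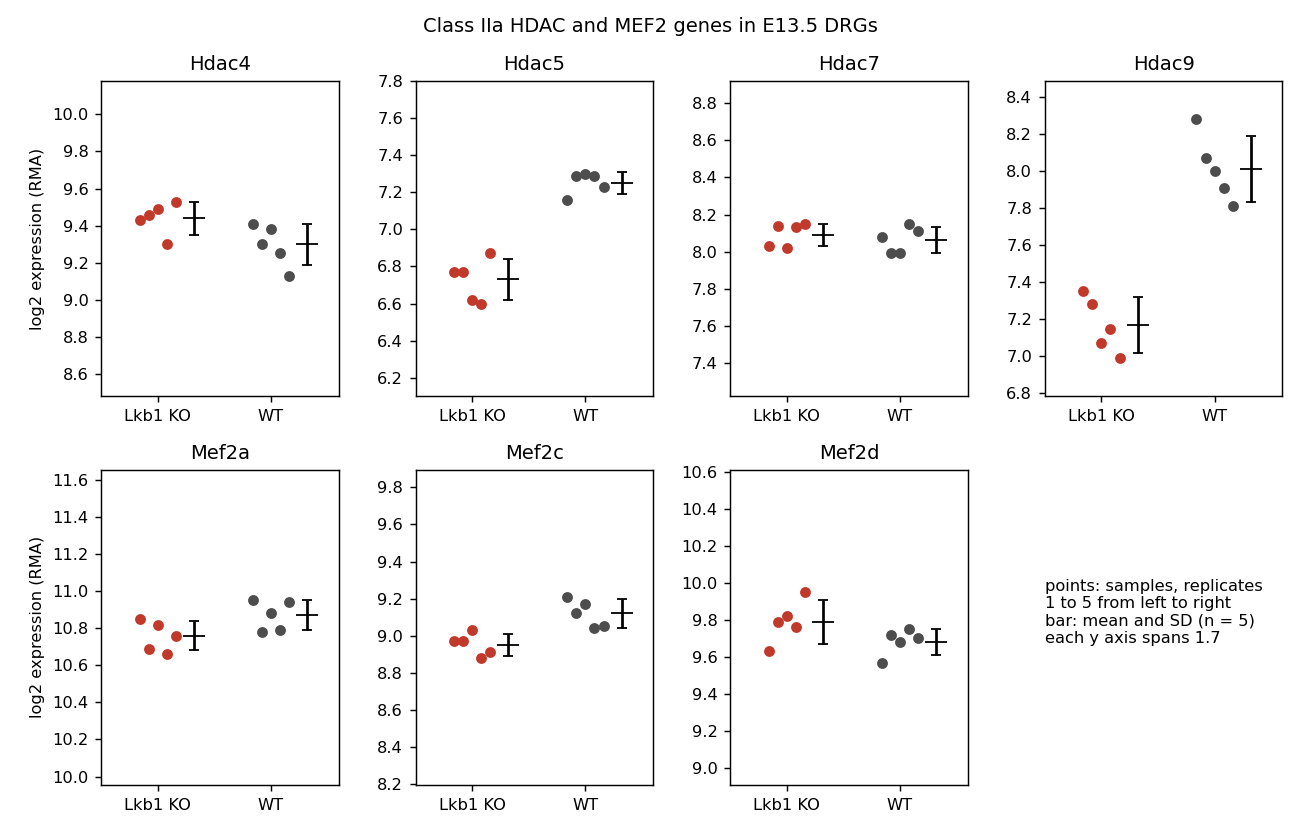
Log2 RMA expression (y axes, each spanning the same range) of the 7 genes in the Lkb1 KO (red) and WT (grey) samples, with mean and SD (n = 5). Hdac9 and Hdac5 are lower in all Lkb1 KO samples, Mef2c by a small margin, and the groups overlap for the other genes.

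Set against its paralogs within each sample, Hdac9 was lower in Lkb1 KO as well. The log2 value of Hdac9 minus the mean of Hdac4, Hdac5 and Hdac7 was -0.73, -0.84, -0.97, -0.86 and -1.19 in Lkb1 KO replicates 1 to 5, against 0.06, -0.12, -0.22, -0.32 and -0.35 in WT. Where 0 lies on this scale depends on the probe sets and has no meaning of its own, and only the shift between the groups, -0.73, can be read. The log2 fold change of Hdac9 was lower by 0.99 than that of Hdac4, by 0.88 than that of Hdac7 and by 0.32 than that of Hdac5. Hdac9 was picked for its change, so these differences are a description too.

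**Figure D3:**
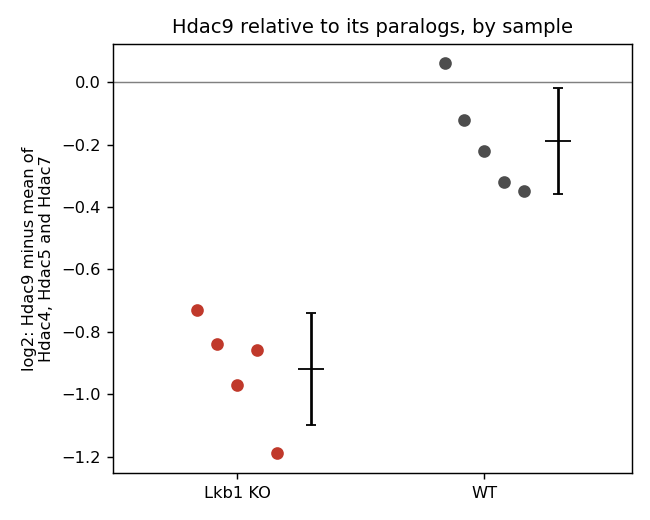
Log2 value of Hdac9 minus the mean of Hdac4, Hdac5 and Hdac7 (y axis) in each Lkb1 KO (red) and WT (grey) sample, with mean and SD (n = 5). The Lkb1 KO samples lie between -1.19 and -0.73 and the WT samples between -0.35 and 0.06; the position of 0 is arbitrary.

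The MEF2 genes, which encode the partners of these HDACs, had log2 differences between -0.17 and 0.11. Mef2c, a factor of neural crest, muscle, vessel and neuron development, was at 8.97, 8.97, 9.03, 8.88 and 8.91 in Lkb1 KO, against 9.21, 9.12, 9.17, 9.04 and 9.05 in WT. No WT sample was as low as an Lkb1 KO one, but the highest Lkb1 KO and the lowest WT sample nearly touched. The log2 difference was -0.17 (standard error 0.05), and it was between -0.24 and -0.14 in each replicate number. Mef2c passed the threshold only when the replicate number was a block in the fit, with which 6.42% of all genes did. Mef2a, the widely expressed member of the family, was at 10.66 to 10.85 in Lkb1 KO (median 10.76), against 10.78 to 10.95 in WT (median 10.88). The groups overlapped, and Lkb1 KO was lower in 5 of 5 replicate numbers, with a mean log2 difference of -0.11 (standard error 0.05). Mef2d, which is also widely expressed, was at 9.63 to 9.95 in Lkb1 KO (median 9.79), against 9.57 to 9.75 in WT (median 9.70). Its log2 difference was 0.11 (standard error 0.06), and a second, dimmer probe set gave 0.07 (standard error 0.06). Thus Mef2a and Mef2c had negative and Mef2d a positive difference, none of them past the threshold without the block.

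**Figure D4:**
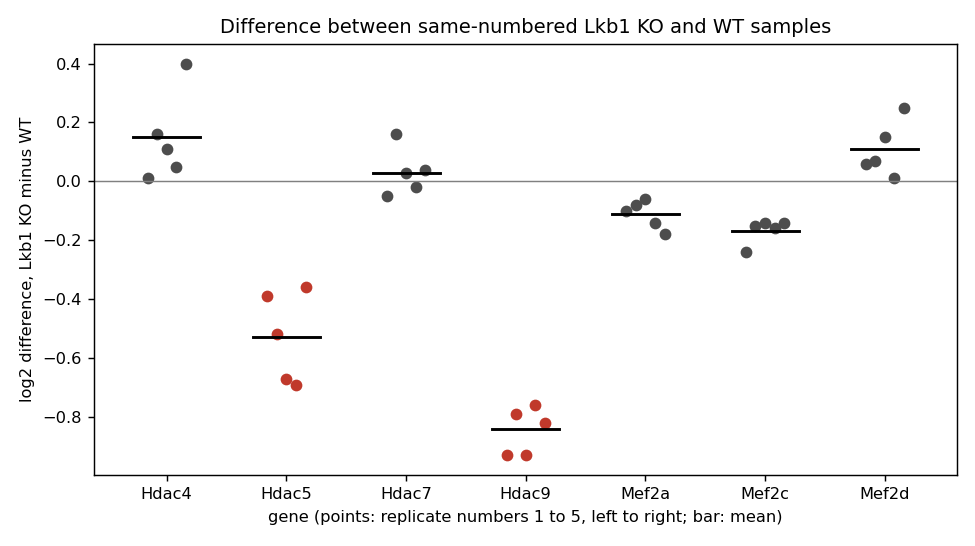
Log2 difference of Lkb1 KO minus WT (y axis) within each replicate number (points, numbers 1 to 5 from left to right) for the 7 genes, with the mean (bar). Red marks the genes that passed the test, Hdac5 and Hdac9; all 5 Hdac9 differences lie between -0.93 and -0.76.

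Stk11 itself was at 7.68 to 7.94 in the Lkb1 KO samples and 8.51 to 9.08 in the WT samples, so that the values followed the labels. Whether its probes cover the deleted sequence is not known here. Markers of other cells moved with genotype. Of 15 sensory neuron markers 3 were lower and 0 higher, with list means of 10.48 to 10.58 in Lkb1 KO and 10.63 to 10.74 in WT. Their log2 differences ran from -0.33 to -0.05. At an unadjusted p under 0.05, which 15.3% of all genes reached in either direction, 11 of these 15 were lower and 0 higher. Of 8 Schwann and satellite glia markers 1 was lower, the cadherin gene Cdh19 at -0.50, and the list means were 9.87 to 9.92 in Lkb1 KO and 9.96 to 10.01 in WT. The log2 differences of these 8 ran from -0.50 to 0.07, with a median of -0.0080, so the shift of the means was not shared by the whole list. At an unadjusted p under 0.05, 3 were lower (Cdh19, Mbp at -0.34 and Gfra3 at -0.20) and 0 higher. Of 12 fibroblast and mesenchyme markers 9 were higher (list means 8.69 to 8.75 in Lkb1 KO, 8.41 to 8.52 in WT), as were 8 of 11 proliferation genes (list means 9.06 to 9.31 in Lkb1 KO, 8.70 to 8.92 in WT). At an unadjusted p under 0.05, 11 of the 12 and 11 of the 11 were higher. Of 10 endothelial markers 1 was higher (2 at an unadjusted p under 0.05), the tight junction gene Cldn5 at 0.29, with list means of 8.42 to 8.69 in Lkb1 KO and 8.39 to 8.49 in WT. None of 10 macrophage or of 10 pericyte markers passed (0 and 2 higher at an unadjusted p under 0.05). The macrophage means were 6.54 to 6.63 in Lkb1 KO and 6.48 to 6.62 in WT, and the pericyte means 6.74 to 6.93 in Lkb1 KO and 6.66 to 6.76 in WT. Of 10 spinal cord markers 2 were higher (5 at an unadjusted p under 0.05), with means of 4.78 to 4.92 in Lkb1 KO and 4.72 to 4.81 in WT. These are dim values, for which a signal could not be told from background. None of 11 skeletal muscle markers passed, at the adjusted or an unadjusted p under 0.05, but their mean was 6.31 in Lkb1 KO replicate 3 against at most 5.54 in every other sample. Y-linked genes were near background in Lkb1 KO replicates 2 and 5, with a mean of 5.02 and 5.21 against at least 8.80 elsewhere. Xist, which silences an X chromosome in female cells, was at 11.70 to 12.37 in 4 of 5 Lkb1 KO samples and at 11.79 and 11.81 in 2 of 5 WT samples, and at 4.48 to 5.46 in the other samples. Lkb1 KO replicates 1 and 4 and WT replicates 2 and 4 thus had both Xist and Y-linked signal, and the genotypes were not balanced for sex. In whole ganglia fewer cells of a type and less RNA per cell cannot be told apart, and the part of these markers in the results was not tested. Without Lkb1 KO replicates 2 and 5, or with the Y-linked mean as a covariate, Hdac9 and Hdac5 kept their calls. These fits reuse the contrast that chose the group, so they are a description, and the part of sex was not tested.

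The genes around the group, taken from lists of other HDACs, partners, kinases, regulators and targets, numbered 94, of which 89 were measured. At an adjusted p under 0.05 from limma, 4 were higher and 2 lower, which is 6.74% of them against 3.87% of all genes. The lists were chosen with earlier results of these data known, so nothing is read from the difference between these shares. In the 6 lists where limma called no gene, one-way analysis of variance of each gene alone called none either. For the 89 genes, the median log2 difference was -0.0016, against -0.0017 over all genes. None of the 7 other zinc-dependent HDAC genes passed, at the adjusted or at an unadjusted p under 0.05; the largest difference among them was that of Hdac11, at -0.20 (standard error 0.10), and that with the smallest p the tubulin deacetylase gene Hdac6, at -0.11 (standard error 0.05, adjusted p = 0.387 from limma). Hdac3, the active enzyme of the corepressor complexes that class IIa HDACs recruit, had -0.04 (standard error 0.04), and the class I genes Hdac1 and Hdac2 had 0.07 and 0.01. With the replicate number as a block Hdac11 passed. None of 7 sirtuin genes passed (2 lower at an unadjusted p under 0.05), nor did any of the 9 measured corepressor genes (1 higher at an unadjusted p under 0.05). The smallest p in each list was that of Sirt5, a mitochondrial deacylase gene, at 6.54 ± 0.08 in Lkb1 KO and 6.66 ± 0.08 in WT, and that of the corepressor gene Ctbp2, at 8.58 ± 0.15 in Lkb1 KO and 8.42 ± 0.08 in WT (SD, n = 5 each; adjusted p = 0.243 and 0.261 from limma). None of the 7 genes of the 14-3-3 family passed either (1 lower at an unadjusted p under 0.05), and Ywhag, with the smallest p, was at 11.22 ± 0.06 in Lkb1 KO and 11.32 ± 0.07 in WT (SD, n = 5 each; adjusted p = 0.297 from limma).

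Of 18 genes of kinases that act on class IIa HDACs, 1 was lower and 1 higher, and the block added Camk1g and Camk2g. Camk4, a nuclear calcium- and calmodulin-dependent kinase of neurons, was at 7.23, 7.01, 6.95, 6.94 and 6.94 in Lkb1 KO, against 7.77, 7.40, 7.40, 7.40 and 7.35 in WT. Replicate 1 was the highest sample of both groups, and the groups did not overlap. The log2 fold change was -0.45 (standard error 0.08, adjusted p = 0.00827 from limma), and the call was lost with the Y-linked covariate (adjusted p = 0.0568 from limma) and without Lkb1 KO replicates 2 and 5 (0.0631), with a log2 fold change of -0.42 in both. Sik3, a salt-inducible kinase activated by LKB1, was at 8.22, 8.40, 8.16, 8.44 and 8.38 in Lkb1 KO, against 8.07, 8.03, 8.16, 8.07 and 8.14 in WT. The groups touched at 8.16, and the log2 fold change of 0.23 (standard error 0.06) passed narrowly (adjusted p = 0.0433 from limma). It no longer passed when any 1 sample other than Lkb1 KO replicates 1 and 3 was left out (adjusted p between 0.0565 and 0.115 from limma), nor with the Y-linked covariate (log2 fold change 0.17, adjusted p = 0.231) or without Lkb1 KO replicates 2 and 5 (0.18, adjusted p = 0.220). The AMPK catalytic genes Prkaa1 and Prkaa2 had log2 differences of -0.02 and -0.06 (standard errors 0.03 and 0.07), and Sik1 one of 0.16 (standard error 0.06, adjusted p = 0.193 from limma).

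None of 16 regulators and coactivators of MEF2 passed (3 higher and 1 lower at an unadjusted p under 0.05). The calcineurin-dependent factor gene Nfatc2 had the smallest p (adjusted p = 0.0661 from limma). It was at 5.17 ± 0.06 in Lkb1 KO and 5.01 ± 0.07 in WT (SD, n = 5 each), a dim signal that could not be told from background. Of 12 neuronal and immediate-early genes described as MEF2 targets, 3 were higher and 1 lower, with a median log2 difference of 0.020. Nr4a1, an orphan nuclear receptor gene that class IIa HDACs repress through MEF2 in thymocytes, was at 8.78, 9.0, 8.98, 9.09 and 9.20 in Lkb1 KO, against 7.96, 8.49, 8.36, 8.41 and 8.39 in WT. Every Lkb1 KO sample lay above every WT sample, and the lowest of all was WT replicate 1. The difference was 0.69 in log2 units, a 1.61-fold rise (adjusted p = 0.00159 from limma, standard error 0.10). Its relative Nr4a3 was at 4.71 to 4.81 in Lkb1 KO, against 4.55 to 4.61 in WT, a dim signal that was higher by 0.16 log2 units (adjusted p = 0.0201 from limma, standard error 0.03). It lost the call with cyclic loess and without Lkb1 KO replicate 3, WT replicate 2 or WT replicate 4 (adjusted p between 0.0519 and 0.0612 from limma). The growth-response factor gene Egr1 was at 6.11 to 6.30 in Lkb1 KO, against 5.86 to 6.03 in WT (log2 fold change 0.26, standard error 0.05, adjusted p = 0.0127 from limma). Its level was low too, with a mean of 5.95 in WT, and whether it lay above background could not be told. Klf6, a zinc finger factor gene linked to axon growth, was lower, at 9.85, 9.84, 9.79, 9.73 and 9.68 in Lkb1 KO and 9.95 to 10.02 in WT, where every sample was higher. Its log2 fold change was -0.21 (standard error 0.04, adjusted p = 0.00995 from limma), and with the Y-linked covariate it was -0.20, with an adjusted p of 0.0640. Arc, Homer1, Bdnf and Fos, all activity-dependent genes, had log2 differences of -0.01, 0.01, 0.03 and 0.07, and Nr4a2 had -0.06. None of them passed. Arc, Bdnf and Fos were dim, with group means between 4.50 (Fos in WT) and 5.23 (Arc in WT), so little can be read from their lack of change.

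None of the 13 muscle and metabolic genes described as MEF2 targets passed, and none reached an unadjusted p under 0.05. Cardiac actin, Actc1, had the smallest p and a log2 difference of 1.04 (adjusted p = 0.352 from limma, standard error 0.50), with 10.41 in Lkb1 KO replicate 3 and at most 7.76 in the other Lkb1 KO samples. The coactivator gene Ppargc1a had -0.05 (standard error 0.10) and the muscle creatine kinase gene Ckm 0.03 (standard error 0.07). Apart from Actc1 and Ppargc1a the genes of this list were dim, with group means between 4.52 (Xirp2 in Lkb1 KO) and 5.88 (Ckm in Lkb1 KO). For these a signal could not be told from background, so nothing is read from their lack of change.

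**Figure D5:**
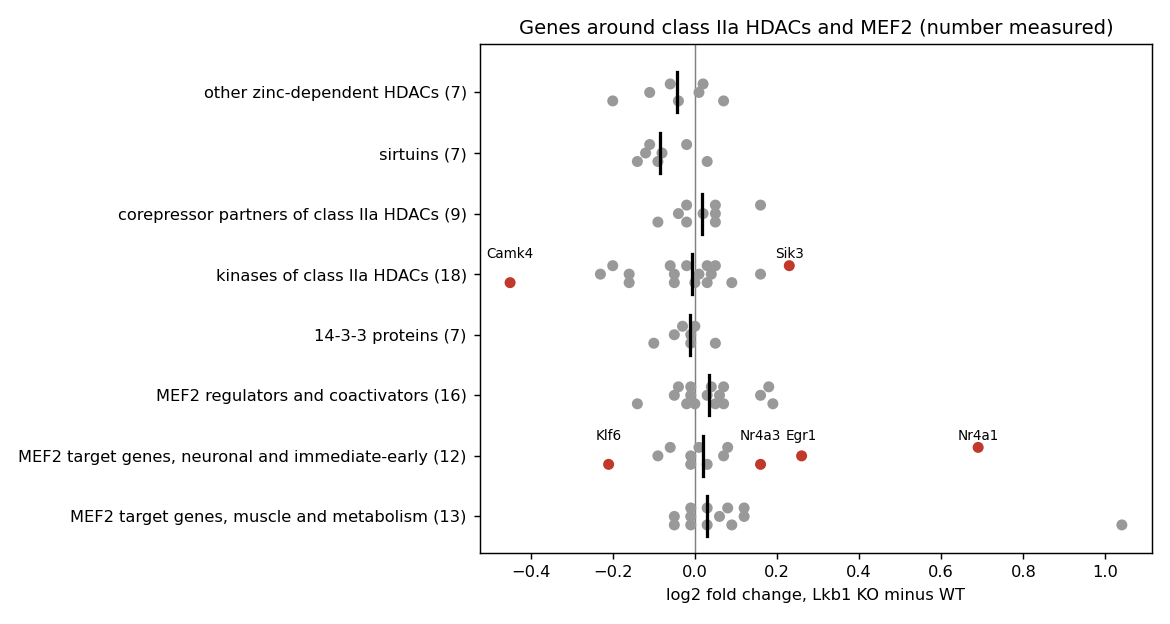
Difference in log2 level between Lkb1 KO and WT (x axis; positive is higher in Lkb1 KO) for each measured gene of 8 lists around class IIa HDACs and MEF2 (y axis, with the number measured), red and named where limma gave an adjusted p under 0.05; black bars are list medians. Nr4a1 at 0.69 and Camk4 at -0.45 lie farthest out among the named genes, and the grey point at 1.04 is Actc1.

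The pattern of Hdac9 over the 10 samples was followed most closely by Adgrg2, an adhesion receptor gene (Pearson r = 0.988), then by the aggrecanase gene Adamts5 (0.986), Tafa2, which encodes a secreted neuronal protein (0.980), Sorcs3, of the sortilin receptor family (0.976), and the phosphatase gene Ptprr (0.970). Each was lower in Lkb1 KO, with log2 fold changes of -0.45, -0.24, -0.38, -0.28 and -0.16, all smaller in size than that of Hdac9. That of Hdac5 was followed by the heparan sulfate sulfotransferase gene Ndst4 (0.976), the arginine methyltransferase gene Prmt8 (0.968), the receptor gene Gprc5c (0.965), the transcription factor gene Ebf1 (0.964) and the netrin receptor gene Unc5c (0.958), all lower in Lkb1 KO, by log2 fold changes between -0.79 (Prmt8) and -0.17 (Ebf1). These correlations hold the difference between the genotypes as well as that between samples, and they are the highest of all genes. For deviations from the genotype means, over the same 10 samples, Il7, Hs6st2 and Prkaa1 were nearest to Hdac9 (0.962, 0.962 and 0.957), and Tars2, Chpf2 and Cnppd1 to Hdac5 (0.958, 0.951 and 0.950). These too are the highest of all genes, and no link is read from them. Prkaa1 hardly varied, with an SD of 0.03 in Lkb1 KO and 0.04 in WT. The log2 differences of the 6 genes nearest by deviations lay between -0.09 and 0.16 and none passed the test in limma, so the genes nearest to each HDAC gene differed with the measure.

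Along chromosome 12, Hdac9 has Twist1, a mesenchymal transcription factor gene, as its measured neighbour on one side and Prps1l1 on the other. Twist1 was at 6.76 to 7.07 in Lkb1 KO, against 6.61 to 6.70 in WT, so that it was higher by 0.30, opposite in sign to Hdac9 (standard error 0.06, adjusted p = 0.0109 from limma). It belongs to the fibroblast and mesenchyme list, and its call was lost with the Y-linked covariate (log2 fold change 0.22, adjusted p = 0.0770 from limma) and without Lkb1 KO replicates 2 and 5 (0.24, adjusted p = 0.0786). The next ones, Twistnb, Ferd3l, Snx13, Mir680-3 and Prps1l1, had log2 differences between -0.04 and 0.08 and did not pass. On chromosome 11 none of the 6 measured genes nearest to Hdac5 passed, and G6pc3, next to it, had the largest difference at -0.11 (standard error 0.05, adjusted p = 0.267 from limma).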

How the data were processed

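The deposited table holds log2 values that the authors made with RMA and Partek 6.6, per the labels' processing notes; the methods name MATLAB, and no genome build is named. RNA (250 ng per array) had been biotin-labelled. Of 35556 probe sets, 21789 name 1 gene, 1621 several and 12146 none listed; symbols were updated through RefSeq (GRCm38.p6), and the brightest probe set per gene left 19938 genes. The contrast of Lkb1 KO with WT was fitted by limma 3.58.1 under R 4.3.3 (lmFit, eBayes, two-sided, Benjamini-Hochberg over these genes, no filter), tested on simulated data. Tables were handled in Python 3.11.15 with pandas 2.3.3. The members and lists were chosen with earlier results of these data known. Named genes were the members, Stk11, called genes of each list or the one with the smallest p, the genes most like Hdac9 and Hdac5, and their 3 neighbours on each side; others were chosen after their values were seen.

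Same-numbered samples deviated together (correlations of deviations across genes 0.21 to 0.48, above 0.1 for every number, the level set for taking the numbers as pairs). The fit reported has no replicate block, so its standard errors, intervals and adjusted p ignore the pairing, and the block was an alternative. The pairing rests on the measured values, as no label explains the numbers. Alternatives were cyclic loess or aligned array medians, a one-way analysis of variance for each gene alone, a robust prior with an intensity trend, array weights, the dimmest 30% left out, probe sets averaged or separate, the replicate block, a Y-linked covariate, Lkb1 KO replicates 2 and 5 left out together, and each sample left out in turn. They were run for Twist1 and Stk11 after seeing the data. The number of arrays limits the precision. Promoter sequences came from RefSeq.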

Additional observations from a re-analysis of the deposited data

Results flagged for a closer look

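Of 40 groups of 5 samples examined (the 7 HDAC and MEF2 genes, Stk11 and the 12 named genes of the surrounding lists, in each genotype), 7 held a sample whose distance to the nearest other sample was over 0.71 of the group's range. None was a group of an HDAC or MEF2 member. Chance flags about 1 in 20 groups. Replicate 1 was such a sample in 5 of the 7 groups. Camk4 was highest in replicate 1 of Lkb1 KO, at 7.23 with the next sample at 7.01, and of WT, at 7.77 with the next at 7.40. In Lkb1 KO replicate 1, Nfatc2 was lowest, at 5.07 with the next sample at 5.17. In WT replicate 1, Ctbp2 was lowest, at 8.28 with the next at 8.44, and so was Nr4a1, at 7.96 with the next at 8.36. Ywhag was lowest in WT replicate 5, at 11.19 with the next at 11.33. Actc1 was highest in Lkb1 KO replicate 3, at 10.41 with the next at 7.76.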

How the results depend on the processing

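Hdac9 and Hdac5 kept their direction and their call in all 20 alternatives in which their fold change was recomputed, with log2 fold changes of -0.90 to -0.78 and -0.60 to -0.49. Both were also called by the one-way analysis of variance per gene. Hdac4, Hdac7, Mef2a and Mef2d were called in none, and Mef2c with the replicate block only, which made 3 of the 7 genes called. The shift of Hdac9 against its paralogs was -0.73 with cyclic loess and -0.74 with probe sets averaged. Over all genes, 771 were called, against 387 with the analysis of variance, 1280 with the replicate block, 475 with the Y-linked covariate and 459 without Lkb1 KO replicates 2 and 5. With 1 sample left out this was 485 to 834, the lowest being 504, 490 and 485 without WT replicates 2, 3 and 4. Of the surrounding genes 6 were called, against 3 with the analysis of variance (Klf6, Nr4a1 and Nr4a3) and 3 with the Y-linked covariate (Egr1, Nr4a1 and Nr4a3), and 4 to 9 with 1 sample left out. The block called 9, those 6 included, and array medians aligned added Camk2g and Nfatc1. Of these 6, Nr4a1 alone kept its call in all 21 alternatives. With the analysis of variance the adjusted p was 0.0632 for Camk4, 0.119 for Sik3, 0.0515 for Egr1 and 0.0569 for Twist1, and with array medians aligned it was 0.0577 for Sik3. Nfatc2 was called with array weights (adjusted p = 0.0246 from limma) and without Lkb1 KO replicate 1 (0.0306). The cause of these changes was not tested. The table has no detection calls, so for dim probe sets such as those of Nr4a3 and Nfatc2 a signal above background could not be told from one at background.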
